A study of Homo sapiens with 10 samples.

Results

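RNA of 10 mucin genes was compared between HCT116 cells and DNMT1 KO cells. The genes were MUC1, MUC2, MUC3A, MUC4, MUC5AC, MUC5B, MUC12, MUC13, MUC17 and MUC20, taken by symbol from the 58884 genes of the count tables. Of the 10, 8 had at least 1 count in some library and 5 (MUC1, MUC3A, MUC5B, MUC12 and MUC13) passed the filter on low counts that precedes the test. MUC2, MUC5AC and MUC17 had too few counts to be tested, and MUC4 and MUC20 were listed at 0 in all 10 libraries.

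HCT116 is a human colorectal carcinoma line of wild-type DNMT1. DNMT1 KO is a derivative of HCT116 in which 3 exons of DNMT1, which encodes the enzyme that copies DNA methylation after replication, were deleted, and the study describes it as a hypomorph that still makes low levels of a truncated protein. It is a single derivative line, so what DNMT1 loss did and what sets this derivative apart for other reasons cannot be told apart. Polyadenylated RNA was sequenced from 6 HCT116 libraries (replicates 1, 2, 3, 7, 8 and 9) and 4 DNMT1 KO libraries (replicates 1 to 4), with no treatment in either group. The labels put the first replicate of both groups in batch 1 and replicates 2 and 3 of both in batch 2, whereas DNMT1 KO replicate 4 (batch 3) and HCT116 replicates 7, 8 and 9 (batch 4) have no library of the other group beside them.

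Mucins are large glycoproteins whose central stretches of repeated serine, threonine and proline residues carry dense O-linked sugars. The secreted gel-forming mucins are packed into granules by goblet cells and build the mucus layer over the epithelium, with MUC2 as the main one of the colon and MUC5AC and MUC5B best known from stomach and airway mucus. The membrane-bound mucins, here MUC1, MUC3A, MUC4, MUC12, MUC13, MUC17 and MUC20, stay on the apical surface of epithelial cells, where they form part of the glycocalyx and can pass signals into the cell.

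The repeats are written into the exons as tandem DNA units, in which a read of 50 bases can match several positions. The first unit of the strongest tandem run is shown for 4 genes (hg38, coding strand, 5′ to 3′), with capitals at positions where at least 90% of the whole copies carry the same base. The MUC1 unit of 60 bases (chr1:155190020-155190079, minus strand) is followed by near copies, 96.1% identical from one to the next over 14.2 copies. The MUC20 unit of 57 bases (chr3:195725121-195725177, plus strand) is 99.4% identical over 11.9 copies. The MUC2 unit of 69 bases (chr11:1095742-1095810, plus strand) is 88.8% identical over 58.2 copies, and the MUC3A unit of 51 bases (chr7:100957465-100957515, plus strand) is 82.5% identical over 32.4 copies.
MUC1 unit: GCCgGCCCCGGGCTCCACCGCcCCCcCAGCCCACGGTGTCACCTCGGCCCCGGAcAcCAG
MUC20 unit: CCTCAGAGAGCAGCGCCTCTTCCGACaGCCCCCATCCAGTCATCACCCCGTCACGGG
MUC2 unit: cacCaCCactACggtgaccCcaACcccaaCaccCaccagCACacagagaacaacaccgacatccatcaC
MUC3A unit: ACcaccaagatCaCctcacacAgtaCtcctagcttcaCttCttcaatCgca

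How much of each gene is repeated was measured by cutting its exons into all words of 50 bases and looking each up in hg38. In MUC12, 62.7% of the words occurred more than once outside the alternate contigs, the largest share of the 10 genes. The share was 39.0% in MUC1, 32.4% in MUC5B, 25.2% in MUC5AC, 1.92% in MUC3A and 0 in MUC13. A read within such a word has no single best position unless its mate lies outside the repeat, and the authors removed reads of low mapping quality. Which stretches of MUC12, MUC1 and MUC5B the counts come from was not tested, and both groups were counted on the same exons.

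Promoter windows, 250 bases before to 50 after the transcription start, were given by RefSeq (GRCh38.p14) for 7 of the 10 genes and matched the hg38 sequence base for base. MUC3A and MUC12 are shown because they lie next to each other on chromosome 7 at very different RNA levels, with each CG, the dinucleotide that DNMT1 methylates, in capitals. CG reads the same on both strands, and 96.0% of all 35116 promoter windows of this length hold at least 1.
MUC3A promoter, chr7:100949284-100949583, plus strand: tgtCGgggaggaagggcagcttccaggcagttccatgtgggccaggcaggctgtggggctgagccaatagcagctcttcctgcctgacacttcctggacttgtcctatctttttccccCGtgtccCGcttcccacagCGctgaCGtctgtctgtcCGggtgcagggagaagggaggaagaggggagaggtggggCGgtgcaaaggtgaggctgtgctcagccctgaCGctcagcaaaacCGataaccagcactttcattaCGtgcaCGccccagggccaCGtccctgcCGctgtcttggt
MUC12 promoter, chr7:100969315-100969614, plus strand: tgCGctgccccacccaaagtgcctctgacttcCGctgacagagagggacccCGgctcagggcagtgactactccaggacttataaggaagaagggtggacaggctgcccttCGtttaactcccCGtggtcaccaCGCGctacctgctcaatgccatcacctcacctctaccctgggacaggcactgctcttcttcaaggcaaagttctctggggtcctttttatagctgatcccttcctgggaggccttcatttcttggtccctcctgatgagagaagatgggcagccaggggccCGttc

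The MUC3A and MUC1 windows held 13 CG, that of MUC4 12, that of MUC2 9, that of MUC12 8, that of MUC13 5 and that of MUC17 4. The median over all promoter windows was 14, so none of the 7 was above it. DNA methylation of these windows was not analysed here.

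Between 35418732 and 85991812 counts were assigned to genes in an HCT116 library, and between 26700853 and 55732013 in a DNMT1 KO library. Among genes of 1 to 10 counts, 64.4 to 70.0% of values were even in 9 libraries and 39.9% in DNMT1 KO replicate 4, so most counts of the 9 may come in mate pairs. Intervals given below treat each count as independent, cover counting error only and would be too narrow if so. The targeted gene followed the labels, with DNMT1 at 153 ± 64.2 CPM (CPM, counts scaled to a common library size with TMM factors; SD, n = 6) in HCT116 and 19.5 ± 3.68 CPM (SD, n = 4) in DNMT1 KO and no overlap between the groups. The study describes its replicates as independent cultures. With group as the sole term, the p-values measure the spread between libraries of each line, in which culture and batch are mixed.

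Of the 5 mucin genes tested, 1 was called higher in DNMT1 KO and 0 were called lower, where a call needs a log2 fold change past 1 in size and an edgeR adjusted p under 0.05. Over all 19279 genes tested, 7.42% were called higher and 6.49% lower by the same rule, 13.9% in all. With 5 members, a count of 1 cannot be set apart from that background, and the result concerns the single gene, MUC5B. The median log2 fold change of the 5 was -0.22, against -0.07 over all genes tested. In bulk RNA, fewer cells that express a gene and less RNA of it per cell cannot be told apart.

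MUC5B, a secreted gel-forming mucin (ENSG00000117983, chromosome 11, 1223066 to 1262172, plus strand), was the member called higher. In HCT116 replicates 1, 2, 3, 7, 8 and 9 its level was 0.712, 0.271, 0.535, 0.306, 0.124 and 0.139 CPM, from 8 to 23 counts a library. In DNMT1 KO replicates 1 to 4 it was 4.82, 1.95, 1.38 and 1.81 CPM, from 52 to 191 counts. Every DNMT1 KO library lay above every HCT116 library, a pattern shown by 8.40% of all genes tested, and DNMT1 KO replicate 1 stood above the other 3. The mean was 0.348 ± 0.232 CPM (SD, n = 6) in HCT116 and 2.49 ± 1.57 CPM (SD, n = 4) in DNMT1 KO, with a log2 fold change of 2.88 (SE 0.54, edgeR quasi-likelihood adjusted p = 0.00147). The ratio of summed counts to summed effective totals was 8.13 (95% exact counting interval 6.52 to 10.2).

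The difference in MUC5B was present in each batch that holds both groups. On the log2(CPM + 0.5) scale DNMT1 KO was higher by 2.14 in batch 1, with 1 library a group, and by 1.27 in batch 2, with 2 a group. With batch as a term in batches 1 and 2 the log2 fold change was 2.298 (edgeR adjusted p = 0.00998). In batch 2 alone it was 2.06 and not called (edgeR adjusted p = 0.100). MUC5B-AS1, which shares 434 exonic bases with MUC5B on the other strand, was listed at 0.

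**Figure D1:**
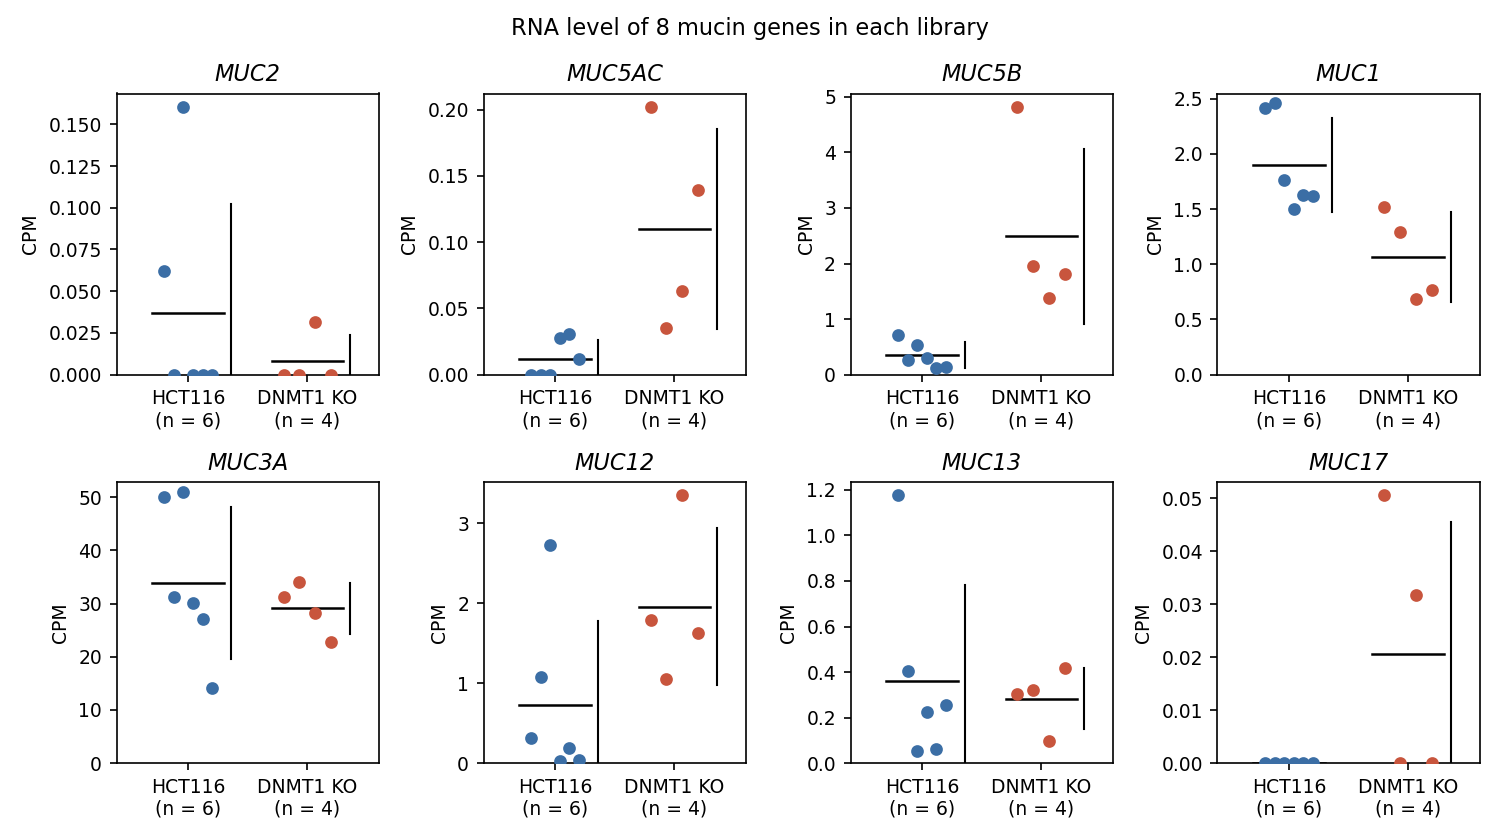
Level of the 8 mucin genes with any count, in CPM on TMM-scaled totals (vertical axis, a scale of its own for each gene, from 0). Points are libraries (HCT116 blue, n = 6; DNMT1 KO red, n = 4), horizontal lines are means and vertical lines ± SD, drawn from 0 where the mean minus SD is below it. The groups do not overlap in MUC5B and MUC5AC, and overlap in the other 6.

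MUC5AC, the gel-forming mucin next to MUC5B (ENSG00000215182, chromosome 11, 1157953 to 1201138, plus strand), had too few counts to be tested. HCT116 libraries held 0, 0, 0, 2, 2 and 1 counts (replicates 1, 2, 3, 7, 8 and 9), and DNMT1 KO libraries held 8, 2, 4 and 4. At 0 to 0.0310 CPM against 0.0355 to 0.202 CPM the groups did not overlap, but by a narrow margin. Of the 35231 genes with a count in any library, 6.11% had every DNMT1 KO library above every HCT116 library. The ratio of summed counts to effective totals was 6.46 (95% exact counting interval 2.31 to 22.2), and without the filter the edgeR adjusted p was 0.0996.

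MUC2, the main secreted mucin of the colon and a defining goblet cell marker (ENSG00000198788, chromosome 11, 1074875 to 1110511, plus strand), was close to absent from these tables. HCT116 replicate 1 held 2 counts, HCT116 replicate 3 held 6 and DNMT1 KO replicate 3 held 2, with 0 in the other 7 libraries. The ratio of DNMT1 KO to HCT116 was 0.448 (95% exact counting interval 0.0464 to 2.25), so neither direction was detectable at this depth. A count of 0 allows up to 3 counts, which is 0.0349 to 0.104 CPM depending on the library. In addition, 67.9% of the exonic words of MUC2 also lie on alternate contigs of hg38, described with MUC4 and MUC20 further on.

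MUC3A, a membrane-bound mucin of the intestine (ENSG00000169894, chromosome 7, 100949534 to 100968347, plus strand), had the highest level of the 10 as counted. It was at 50.0, 31.2, 50.996, 30.1, 27.1 and 14.05 CPM in HCT116 replicates 1, 2, 3, 7, 8 and 9 and at 31.2, 34.0, 28.2 and 22.8 CPM in DNMT1 KO replicates 1 to 4. The DNMT1 KO values lay inside the HCT116 range. Its log2 fold change came to -0.22 (SE 0.32, edgeR quasi-likelihood adjusted p = 0.706), against -0.67 within batch 1 and -0.36 within batch 2 on the log2(CPM + 0.5) scale. MUC3A made up 87.2 to 93.5% of the summed CPM of the 10 genes in HCT116 libraries and 78.2 to 88.0% in DNMT1 KO libraries. The low or absent counts of MUC2, MUC4 and MUC20 cannot be read as absence of RNA, as described further on. The rank and the share therefore hold for the counted RNA only. Of its exonic bases, 6.48% are shared with an antisense gene, ENSG00000274993, which had 24 counts in HCT116 and 9 in DNMT1 KO.

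MUC12, the membrane-bound mucin next to MUC3A (ENSG00000205277, chromosome 7, 100969623 to 101018949, plus strand), ranged widely between HCT116 libraries. It was at 0.309 CPM in HCT116 replicate 1, at 1.08 and 2.73 CPM in replicates 2 and 3, and at 0.0279, 0.186 and 0.0349 CPM in replicates 7, 8 and 9. In DNMT1 KO it was at 1.79, 1.05, 3.35 and 1.63 CPM. The HCT116 libraries of batch 2 lay within or near the DNMT1 KO range, and those of batches 1 and 4 lay below it.

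The log2 fold change of MUC12 stood at 1.46 (SE 0.91, edgeR adjusted p = 0.331), so it was not called. Without HCT116 replicate 3 it was 2.65 and called higher (edgeR adjusted p = 0.0337), whereas without the HCT116 libraries of batch 4 it was 0.51 (adjusted p = 0.679). Within batches, on the log2(CPM + 0.5) scale, the difference was 1.503 in batch 1 and 0.11 in batch 2. Whether the call holds thus depends on which HCT116 libraries are compared. MUC12-AS1, antisense to MUC12 with 194 shared exonic bases, had 2 counts in HCT116 and 37 in DNMT1 KO, and the sources name no strand option for the counting.

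MUC17, an intestinal membrane-bound mucin beside MUC12 (ENSG00000169876, chromosome 7, 101020072 to 101058745, plus strand), was listed at 0 in the 6 HCT116 libraries. DNMT1 KO replicates 1 and 3 held 2 counts each and replicates 2 and 4 held 0. The 3 neighbours of this cluster therefore stood at very different levels, with MUC3A far above MUC12 and MUC17 near 0 in both groups.

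MUC1, an epithelial membrane mucin with a signalling tail (ENSG00000185499, chromosome 1, 155185824 to 155192916, minus strand), was at 2.41, 2.46, 1.76, 1.504, 1.63 and 1.61 CPM in HCT116 replicates 1, 2, 3, 7, 8 and 9. In DNMT1 KO it was at 1.52, 1.30, 0.682 and 0.765 CPM. The groups touched at 1 point, since DNMT1 KO replicate 1 was level with HCT116 replicate 7. At a log2 fold change of -0.83 (SE 0.36) MUC1 was not called (edgeR adjusted p = 0.148). It was -0.53 within batch 1 and -0.83 within batch 2 on the log2(CPM + 0.5) scale, and its adjusted p ran from 0.0790 to 0.331 over 22 alternatives.

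MUC13, a short transmembrane mucin of the gut (ENSG00000173702, chromosome 3, 124905442 to 124953819, minus strand), was at 1.18, 0.406, 0.0535, 0.223, 0.0620 and 0.256 CPM in HCT116 replicates 1, 2, 3, 7, 8 and 9. In DNMT1 KO it was at 0.303, 0.320, 0.0952 and 0.417 CPM, inside the HCT116 range. The log2 fold change of -0.33 (SE 0.76, edgeR adjusted p = 0.821) turned to 0.50 without HCT116 replicate 1, the highest library, and to 0.0065 without DNMT1 KO replicate 3, the lowest of its group. No direction can therefore be given for MUC13.

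**Figure D2:**
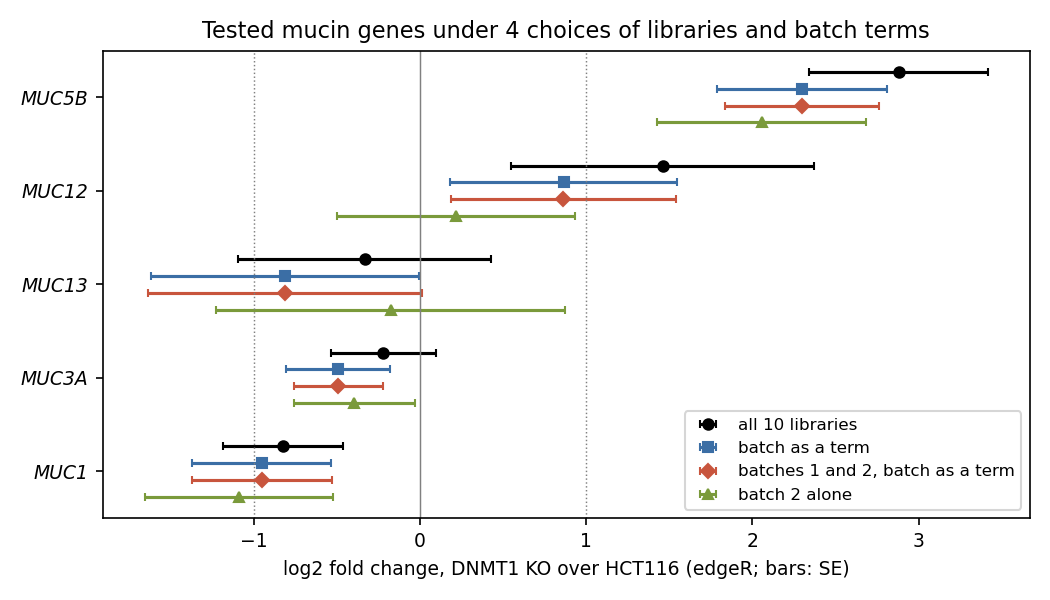
Log2 fold change of DNMT1 KO over HCT116 for the 5 tested mucin genes (horizontal axis, edgeR; bars are SE), fitted on all 10 libraries (black), with batch as a term (blue), on batches 1 and 2 with batch as a term (red) and on batch 2 alone (green). Dotted lines mark a log2 fold change of 1 in either direction. MUC5B stays above 2 in each fit, at 2.06 in batch 2 alone, and MUC12 falls from 1.46 to 0.21.

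Per kb of the whole exon length, repeated stretches included, the order in HCT116 was MUC3A (2.98 ± 1.25 CPM per kb), MUC1 (0.402 ± 0.0903), MUC13 (0.104 ± 0.120), MUC12 (0.0425 ± 0.0616), MUC5B (0.0187 ± 0.0125), MUC2 and MUC5AC (SD, n = 6). Of neighbours in this order, MUC3A and MUC1 were the pair whose libraries did not overlap. In DNMT1 KO the order was MUC3A (2.55 ± 0.423 CPM per kb), MUC1 (0.226 ± 0.0860), MUC5B (0.134 ± 0.0846), MUC12 (0.114 ± 0.0573), MUC13 (0.0811 ± 0.0387) and MUC5AC (0.00631 ± 0.00432; SD, n = 4). MUC3A and MUC1, and MUC13 and MUC5AC, were the neighbours whose libraries did not overlap. The places below MUC1 depend on the length used. With the length cut to the share of 50-base words that occur once outside the alternate contigs, a choice made after seeing the data, MUC12 stood at 0.114 ± 0.165 and MUC13 at 0.104 ± 0.120 CPM per kb in HCT116, and MUC12 at 0.306 ± 0.154 and MUC5B at 0.198 ± 0.125 in DNMT1 KO, which turns both orders. MUC3A (3.03 ± 1.27 and 2.60 ± 0.432) and MUC1 (0.660 ± 0.148 and 0.370 ± 0.141) kept the first places in both groups. The places of MUC2, MUC4 and MUC20 are uncertain, since their counts cannot be read as absence of RNA.

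The genes whose log2(CPM + 0.5) followed that of MUC3A most closely over the 10 libraries were STIM1 (Pearson r = 0.97), RASD2 (0.96) and ERGIC1 (0.96), a description over libraries that share batch and group.

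MUC4 (ENSG00000145113, chromosome 3, 195746765 to 195811973, minus strand) and MUC20 (ENSG00000176945, chromosome 3, 195720884 to 195741123, plus strand), neighbouring membrane-bound mucins, were listed at 0 in every library. All of their exonic 50-base words, 100% in both, also lie on alternate contigs of the supplied hg38. TNK2, close to MUC4 and with 0% of such words, had 6659 counts in HCT116 and 4996 in DNMT1 KO, whereas SCAMP3 and CLK2, close to MUC1 and with 100%, were also listed at 0.

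Over all coding genes, a 0 in all libraries was most frequent where at least 50% of the words lie on alternate contigs. Below 50% it did not rise with the share. Of 604 genes with at least 95% of their words on alternate contigs, 540 were at 0 in all libraries (89.4%). Of 214 genes with 50 to under 95% it was 115 (53.7%), of 7121 with some but under 50% it was 351 (4.93%), and of 11917 with none it was 1741 (14.6%). Whether the authors' index held the alternate contigs is not given in the sources used here, and the part of this in the zeros of MUC4 and MUC20 and the low count of MUC2 was not tested. A 0 for these genes therefore cannot be read as absence of their RNA.

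**Figure D3:**
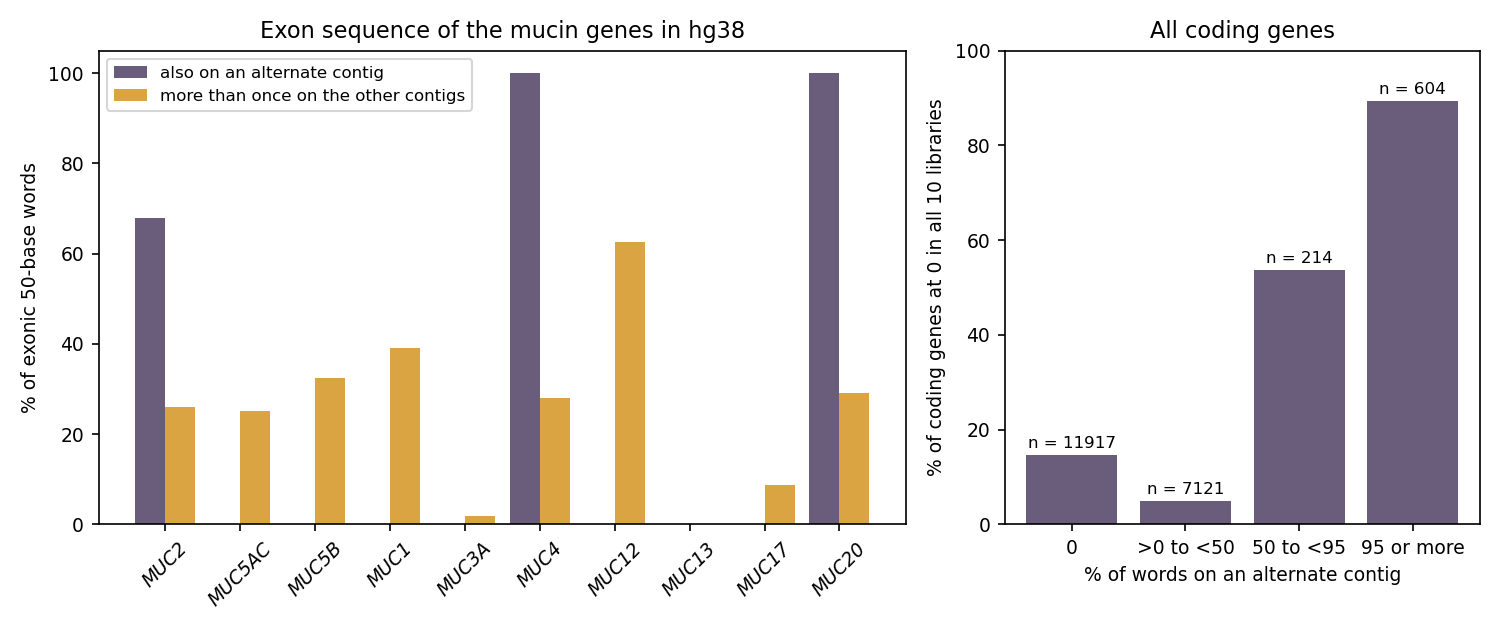
Left, share of the exonic 50-base words of each mucin gene that also lie on an alternate contig of hg38 (purple) or occur more than once on the other contigs (yellow), in percent. Right, share of coding genes listed at 0 in all 10 libraries by the share of their words on alternate contigs, with the number of genes above each bar. MUC4 and MUC20 stand at 100% on the left, in the class where 89.4% of genes were at 0.

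A list of 13 other mucin genes held 4 tested members, of which 1 was called higher and 0 lower (7.42% and 6.49% over all genes tested). The member called was MUC15, a membrane-bound mucin named here after its values were seen, at 0.0117 ± 0.0144 CPM (SD, n = 6) in HCT116 and 0.289 ± 0.120 CPM (SD, n = 4) in DNMT1 KO (log2 fold change 4.15, SE 0.68, edgeR adjusted p = 0.000492). Every DNMT1 KO library lay above every HCT116 library, as in 8.40% of all genes tested. Its 5 counts in HCT116 and 59 in DNMT1 KO keep the size imprecise. MUC6, MUC7, MUC21, MUC22, MUCL1 and MUCL3 were at 0 in all libraries. Of the exonic words, 99.0% in MUC6, 100% in MUC21 and MUC22 and 98.3% in MUCL3 also lie on alternate contigs. The share was 0% in MUC7 and MUCL1. For MUC6, MUC21, MUC22 and MUCL3 a 0 therefore cannot be read as absence of RNA either.

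Of 20 goblet cell and mucus packaging genes, 6 were tested, 3 were called higher and 0 lower (7.42% and 6.49% over all genes tested), with a median log2 fold change of 1.78. SYTL2, a synaptotagmin-like protein that docks secretory granules, was at 3.68 to 7.93 CPM in HCT116 (median 7.17) and at 36.2 to 141 CPM in DNMT1 KO, with a log2 fold change of 3.88 (SE 0.34, edgeR adjusted p = 1.73e-06). BCAS1 was at 0.204 ± 0.115 and 2.20 ± 0.933 CPM, a log2 fold change of 3.43 (SE 0.47, edgeR adjusted p = 0.000103). The other was BEST2, a bestrophin anion channel of goblet cells, at 0.0191 and 0.870 CPM. Of other goblet cell genes, AGR2, which folds MUC2, was at 0 in all libraries, and TFF3 had 0 counts in HCT116 and 2 in DNMT1 KO. Of the 6 goblet cell markers listed, 1 (FCGBP) was tested and 0 were called, against 7.42% higher and 6.49% lower over all genes tested. Their summed level ran from 1.56 to 10.7 CPM in HCT116 and from 2.56 to 10.4 CPM in DNMT1 KO. FCGBP alone ran from 1.15 to 10.4 and from 2.42 to 10.3 CPM, so the sum says little of the other markers.

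Of 33 genes of mucin O-glycosylation, 27 were tested, 1 was called higher and 7 lower (7.42% and 6.49% over all genes tested), and the median log2 fold change was -0.59. Those called lower were GALNT3, GALNT5 and GALNT12, which attach the first sugar, GCNT3 and B3GNT3, which branch and extend the chain, and ST3GAL1 and FUT2, which cap it with sialic acid or fucose. FUT2 was at 8.84 to 20.9 CPM in HCT116 (median 11.5) and at 0.730 to 1.29 CPM in DNMT1 KO, with a log2 fold change of -3.63 (SE 0.35, edgeR adjusted p = 3.92e-06). GCNT3, the mucin-type branching enzyme, was at 14.9 ± 15.7 and 0.765 ± 0.827 CPM, a log2 fold change of -4.24 (SE 0.94, edgeR adjusted p = 0.00545). Its lowest HCT116 library was at 2.06 CPM and its highest DNMT1 KO library at 2.00 CPM, apart by a narrow margin. How many of all genes had every DNMT1 KO library below every HCT116 library was not counted. GALNT4 was the member called higher, from 0.418 ± 0.202 to 1.54 ± 0.271 CPM (log2 fold change 1.88, SE 0.41, edgeR adjusted p = 0.00510). C1GALT1, which builds the common core, was at 71.6 ± 19.6 and 51.8 ± 17.6 CPM and was not called (log2 fold change -0.46, edgeR adjusted p = 0.345).

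Of 20 transcription factors of mucin or goblet cell genes, 15 were tested, 3 were called higher and 5 lower (7.42% and 6.49% over all genes tested), with a median log2 fold change of -0.56. ELF3 and EHF, epithelial factors of the ETS family, fell from 92.4 ± 56.2 to 0.222 ± 0.0419 CPM and from 70.3 ± 18.6 to 0.143 ± 0.0283 CPM, log2 fold changes of -8.70 and -8.91 (SE 0.65 and 0.38, edgeR adjusted p = 3.55e-07 and 2.56e-09). FOXA2 had 115 counts in HCT116 (0.384 ± 0.260 CPM, mean ± SD) and 0 in DNMT1 KO. Its HCT116 mean was 24.0-fold above a floor of 3 counts over the DNMT1 KO group. HNF4A and SOX9 were the others called lower, whereas FOXA1 was called higher. SPDEF, the goblet cell factor, was not tested, with 65 counts in HCT116 (0.227 ± 0.234 CPM) and 0 in DNMT1 KO. Its HCT116 mean was 14.2-fold above the same floor, with an SD larger than the mean. Both folds take the HCT116 mean as exact and each count as independent, so they are not lower bounds.

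CREB3L1, a factor of the secretory pathway, rose from 0.320 ± 0.0647 to 7.68 ± 2.97 CPM and HES1, a Notch target, from 25.3 ± 11.3 to 89.6 ± 19.4 CPM (log2 fold changes 4.58 and 1.83, edgeR adjusted p = 5.28e-07 and 0.000643). CDX2, the intestinal identity factor, was at 30.7 ± 9.09 and 36.02 ± 2.72 CPM and was not called (edgeR adjusted p = 0.601).

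**Figure D4:**
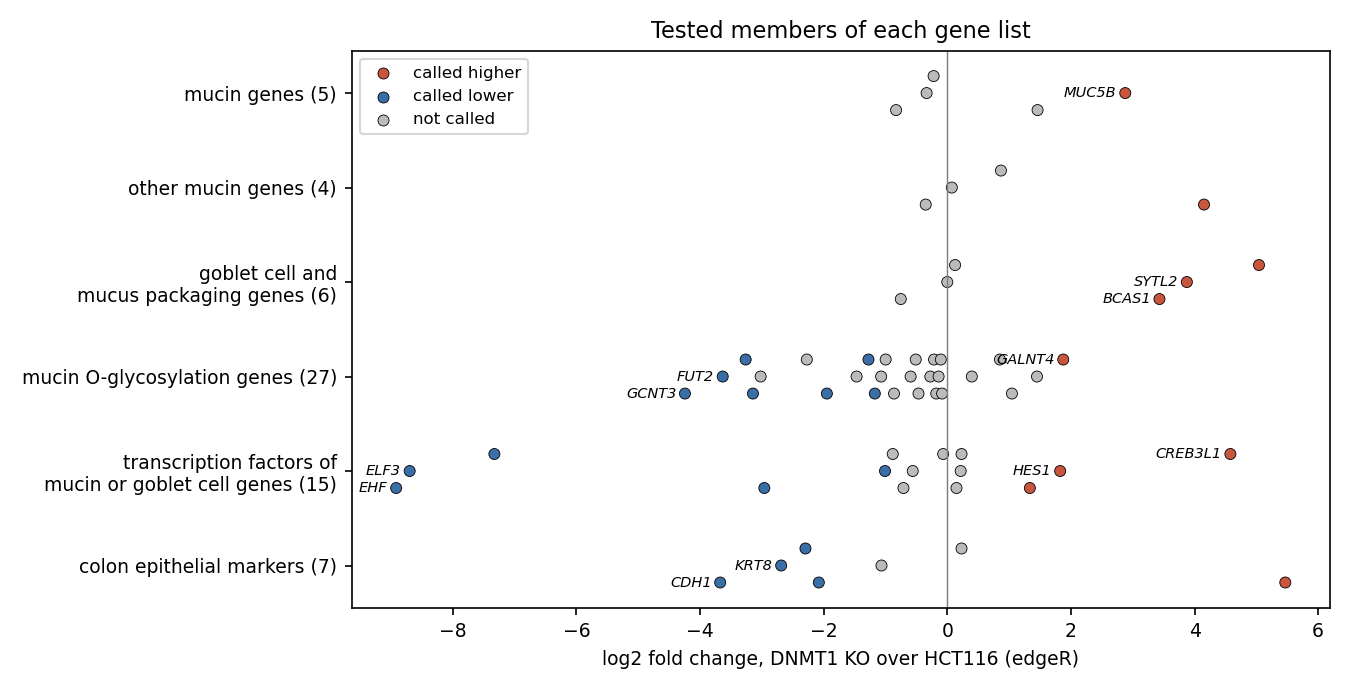
Log2 fold change of DNMT1 KO over HCT116 (horizontal axis, edgeR) for the tested members of 6 gene lists, whose number of tested members stands in brackets. Points are genes, red where called higher, blue where called lower and grey where not called, spread vertically so that they do not hide each other. MUC5B is the red point among the mucin genes at 2.88, while 7 O-glycosylation genes and 5 transcription factors are blue.

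Markers of cell types were counted by the same rule (7.42% called higher and 6.49% lower over all genes tested). Of 10 colon epithelial markers, 7 were tested, 4 were called lower (EPCAM, CDH1, KRT8 and KRT18) and 1 higher (VIL1), and their summed level was 2520 to 6130 CPM in HCT116 and 646 to 1431 CPM in DNMT1 KO. Of 5 fibroblast markers, 4 were tested and 3 called higher, COL3A1, LUM and PDGFRB (log2 fold changes 7.84, 8.18 and 3.96), while COL1A1, which holds most of their sum in HCT116, was at 12.5 ± 4.27 and 6.72 ± 5.06 CPM and was not called. The summed fibroblast level ran from 6.47 to 19.8 CPM in HCT116 and from 16.5 to 21.4 in DNMT1 KO. Of 4 endothelial markers, 3 were tested and 2 called higher (PECAM1 and VWF), with sums of 0.290 to 1.58 and 4.46 to 6.01 CPM. PTPRC, the defining leukocyte gene, had 2 counts in each group. The part of these shifts in the mucin values was not tested.

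Of 62 genes within 100 kb of a mucin gene, 28 were at 0 in all libraries, 27 were tested, 2 were called higher and 2 lower, and the median log2 fold change was -0.08. Over all genes tested 7.42% were called higher and 6.49% lower, so these counts are near the background, and the 4 genes are named for their position alone. Among the genes at 0, 99.0% of the exonic words of MUC6 and 100% of those of SCAMP3, CLK2 and MUC20-OT1 lie on alternate contigs. The 0 of such genes cannot be read as absence of RNA, so the 28 is not a count of silent genes. Around MUC2, MUC5AC and MUC5B, 3 of 8 neighbours were tested and 0 were called. TOLLIP, close to MUC5B, was at 35.99 and 38.5 CPM, so the higher level of MUC5B was not shared by this neighbour. ACHE, near MUC3A, was at 2.01 ± 0.423 CPM in HCT116 and 7.001 ± 2.74 CPM in DNMT1 KO (log2 fold change 1.79, edgeR adjusted p = 0.000834). HEG1, near MUC13, was at 10.1 ± 5.25 and 25.9 ± 11.1 CPM (1.36, edgeR adjusted p = 0.0168). EFNA1, near MUC1, was at 20.7 ± 6.95 and 7.02 ± 1.24 CPM (-1.56, edgeR adjusted p = 0.00184), and AP1S1, near MUC17, at 97.3 ± 35.6 and 43.8 ± 12.5 CPM (-1.15, edgeR adjusted p = 0.0194).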

How the data were processed

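The authors made stranded poly(A) libraries, trimmed reads with Trim Galore 0.4.1, mapped them to hg38 with bowtie2, removed reads of mapping quality under 10 and assigned exonic reads to genes with featureCounts (no strand setting is stated). Each deposited table holds raw counts of 1 library. Another 3 tables, of HCT116 replicates 4 to 6, have no listed sample and were not used. Depth is given with the results.

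The 2 groups were compared with edgeR 4.0.16 in R 4.3.3 (filterByExpr, TMM, glmQLFit and glmQLFTest, two-sided, group as the sole term, Benjamini-Hochberg over 19279 genes). Calls needed a log2 fold change past 1 in size and an adjusted p below 0.05. Levels are CPM on TMM-scaled totals. Counting intervals are exact (Clopper-Pearson, 95%). Coordinates, strands and exon lengths are those of the deposited counts, and symbols were joined by Ensembl ID. Gene types are from GENCODE release 44, in which 81.8% of the shared genes have the same start and end. The fit was tested on simulated data.

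The mucin genes and the lists were chosen with earlier results of these data known. Named are the 10 members, DNMT1, from each list up to 2 largest increases and 2 largest decreases called with at least 1 CPM in the higher group, called neighbours within 100 kb, and the 3 genes most alike to MUC3A. Other genes were named after their values were seen, and the word search was added then too. The result of 1 marker list is not reported here. Alternatives were RLE factors, library totals, other filters, DESeq2 1.42.0, batch terms, batch 2 alone, halved counts, a replicate block and leaving out each replicate.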

Additional observations from a re-analysis of the deposited data

Results flagged for a closer look

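Of 17 groups of libraries examined (DNMT1 and each mucin gene, in HCT116 and in DNMT1 KO, where values were not all 0), 3 held a library whose gap to the others passed Dixon's 95% critical value, where chance gives about 1 in 20, or 0.85. DNMT1 KO replicate 1 had 4.82 CPM of MUC5B, where the other 3 had 1.38 to 1.95 CPM, and MUC5B was called higher without that library too. MUC13 was at 1.18 CPM in HCT116 replicate 1, against 0.0535 to 0.406 CPM in the other 5, and its direction changed without that library. DNMT1 KO replicate 3 had 0.0317 CPM of MUC2, which is 2 counts, where the other 3 had 0. With the others tied at 0 the ratio is 1.0 by construction, so this one says nothing beyond the 2 counts.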

How the results depend on the processing

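MUC5B kept its direction in 21 alternatives that gave a value and its call in 20, with a log2 fold change from 2.06 to 3.23. Batch 2 alone, which has fewer libraries, left 0 mucin genes called higher, with 815 genes called higher and 798 lower in all. Requiring at least 10 counts in every library removed MUC5B, MUC12 and MUC13 from the test and left 0 mucin genes called higher, with 734 and 766 genes in all. It also left 1 goblet cell and mucus packaging gene higher, 0 O-glycosylation genes higher and 1 transcription factor lower. Without HCT116 replicate 3, MUC12 was called as well, making 2 mucin genes. Leaving out 1 replicate at a time gave 1 to 2 mucin genes higher, 1214 to 1587 genes higher and 987 to 1250 lower.

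MUC13 turned to 0.50 and 0.0065 without HCT116 replicate 1 or DNMT1 KO replicate 3 (-0.57 to 0.50 over the single replicates left out), and halved counts removed it from the test. The cause was not tested. O-glycosylation genes called higher numbered 2 with library totals alone, with no filter and with batch as a term, and 0 in batch 2 alone and in replicates 1 to 3 with or without the replicate block. Those called lower ran from 5 to 10 over 22 alternatives, with 10 when batches 1 and 2 were fitted with a batch term. Halved counts left 3 transcription factors lower. The list alternatives were chosen after seeing the data. Library totals alone moved the median log2 fold change of all genes to 0.14 and the split to 1878 higher and 956 lower, against 1431 and 1251.

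Deviations of same-numbered libraries correlated at 0.55, -0.27 and 0.37 (replicates 1, 2 and 3), so the numbers were not taken as pairs. With the replicate block on replicates 1 to 3, MUC5B was at 2.32 (edgeR adjusted p = 0.0184), with 1232 genes higher and 1235 lower, against 1171 and 1147 in the same libraries without the block, and the block changed no call of a mucin gene. MUC2, MUC5AC and MUC17 have too few counts for a test at this depth. For MUC2, the parts of depth and of the alternate contigs in the low count were not tested.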
